A study of Mus musculus with 4 samples.

Results

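The genes of the MAGE (melanoma antigen) family were taken by name, as every row of the expression table whose symbol begins with Mage and a family letter, together with Ndn (necdin) and Ndnl2, which RefSeq calls Nsmce3. The rule found 24 of 23420 genes. Of the 24, 20 are X-linked and 4 are autosomal. RNA was sequenced from pachytene spermatocytes isolated by FACS from wild-type (WT) C57BL/6 mice of 23 weeks of age, with 15000 cells for each library. The cells were cultured for 24 h with the solvent DMSO (Ctrl, 2 libraries) or with 10 µM AZ20, an inhibitor of the kinase ATR (2 libraries), to ask whether silencing of the sex chromosomes, when already established, still needs ATR. Cells of a mouse were divided between the conditions. Libraries with the same replicate number were taken as a pair, although the labels do not name the mice. The sample labels give a culture temperature of 34 °C and the methods give 32 °C. Depth, as reads recovered from the deposited TPM (a level per gene length, scaled to the total of the library), was 14271605 and 16157672 for the Ctrl libraries and 20587153 and 18892576 for the AZ20 libraries.

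MAGE proteins share a folded region, the MAGE homology domain, through which many of them bind RING-type ubiquitin ligases and steer them to substrates. The MAGE-A and MAGE-B genes (type I) lie mostly on the X chromosome, are active mainly in the male germ line and become active again in many tumours, whereas the MAGE-D, -E, -H and -L genes, necdin and Nsmce3 (type II) are active in many tissues. In male meiosis the X and Y chromosomes are silenced from the early pachytene stage onward, a process called meiotic sex chromosome inactivation (MSCI), for which the DNA damage response kinase ATR is known to be required.

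The cells carried RNA of the labelled type in both conditions. The 8 pachytene spermatocyte markers (among them Sycp1, Sycp3 and Piwil1) summed to 10183 and 10519 TPM in Ctrl and 10915 and 10678 TPM in AZ20, and none of the 8 was called. Ldhc was the largest part of each sum (6056 and 5827 TPM in Ctrl, 6178 and 5216 TPM in AZ20). Markers of somatic testis cells and most spermatogonium markers were low, whereas round spermatid markers were not. All 7 Sertoli cell markers stayed under 1 TPM in every library, with sums of 0.0529 and 0.0984 TPM in Ctrl and 0.59 and 0.651 TPM in AZ20, and Sox9, Wt1 and Rhox5 were at 0. In spermatogonia MAGE-A genes are known to be active. The 8 spermatogonium markers summed to 8.26 and 21.2 TPM in Ctrl and 13.5 and 15 TPM in AZ20. Stra8 and Dmrt1 were at 0, and 6 of the 8 stayed under 1 TPM throughout. Most of the sum was Uchl1 (7.6 and 20.1 TPM in Ctrl, 11.2 and 13.8 TPM in AZ20). Gfra1 was higher in both pairs (0.154 and 0.376 TPM in Ctrl, 1.11 and 0.945 TPM in AZ20). It was not called (adjusted p = 0.655, limma). Zbtb16 (2 and 0 reads in Ctrl, 20 and 7 in AZ20) and Sall4 (0 and 0, then 1 and 12) were also higher in both pairs. Kit and Nanos3 were not. Round spermatid markers summed to 354 and 145 TPM in Ctrl and to 753 and 244 TPM in AZ20, higher with AZ20 in both pairs although the ranges overlapped. Of these 6 genes, Prm1, Prm2, Tnp1 and Tnp2 were higher in both pairs, with Prm1 (a protamine of condensing spermatids) at 83 and 39.2 TPM in Ctrl and 210 and 73.9 TPM in AZ20. Prm1 was not called (adjusted p = 0.615, limma), but it was called in the fit with the replicate block (adjusted p = 0.000766, limma). With the block Tnp2 and Tnp1 also had adjusted p-values under 0.05 (0.00766 and 0.0279, limma). Their changes of 0.87 and 0.88 were under 2-fold, so they were not called. Prm2, Acrv1 and Tssk6 had adjusted p-values of 0.277 or more (limma with the block). The part of spermatogonium or spermatid RNA in the MAGE values was not tested. Leydig cell, macrophage and peritubular myoid markers summed to at most 4.44 TPM, and no gene of these lists was called without the block. In bulk RNA, fewer cells of a type and less RNA per cell cannot be told apart.

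The X-linked MAGE genes were nearly silent in Ctrl, and a subset of them carried substantial RNA after AZ20. No X-linked member exceeded 1 TPM in either Ctrl library, and 12 did in each AZ20 library. Of the 20, 13 had no read in either Ctrl library and 17 had 3 reads or fewer in each. The TPM of the 20 genes summed to 0.831 and 1.99 in Ctrl and to 362 and 336 in AZ20. Because of the filter used for testing (a mean above 1 TPM in Ctrl or AZ20), 14 of the 24 members were tested, 12 of them X-linked. All 12 passed through their AZ20 level alone and so had to be higher there, whereas 53 of the 341 X-linked genes tested passed on their Ctrl level. The counts and medians over the tested members are therefore descriptions.

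The limma fit was on log2(TPM + 1), and a call needed a 2-fold change and an adjusted p under 0.05 (Benjamini-Hochberg, over all genes tested). AZ20 was higher in 11 called members of the 14 tested, and 0 were called lower, beside a background of 2.28% called higher and 0.0485% called lower among all genes tested. Among X-linked genes tested 63.3% were called higher and 0% lower, compared with 0.101% and 0.0504% of autosomal genes. With no adjustment and a limma p under 0.05, 12 members were higher and 0 lower. The share of tested X-linked MAGE genes that was called (11 of 12) thus stands beside a chromosome on which most tested genes were called. The median change on the log2(TPM + 1) scale was 3.25 over the tested members and 3.52 over the X-linked ones (2.22 to 6.29), beside 2.61 over all X-linked genes tested, 0.06 over autosomal genes and 0.07 over all genes. As fold of the level, with genes at 0 in Ctrl set to their lower bound, the median was 60.2 over the 14 members, and the X-linked members spanned 22.2 to 403. Every AZ20 library was above every Ctrl library for 12 of 12 tested X-linked members, as it was for 26.4% of all genes and 91.2% of X-linked genes tested. With the replicate number as a block 12 members were called higher (background 4.11% of all genes and 81.8% of X-linked genes), and 11 were with voom on the recovered reads (2.13% and 59.2%). Voom together with the block called 12 (2.99% and 76%), and limma with no filter called 11 of 18 members with a read (1.17% of all genes and 28.9% of X-linked genes). Without either one of the AZ20 libraries no member and no other gene was called higher, in fits where a lone library stands for AZ20. The smallest adjusted p of a member from limma was then 0.0902 without AZ20 replicate 1 and 0.0791 without AZ20 replicate 2, and 12 of the 14 still had an unadjusted p under 0.05. Without Ctrl replicate 1, or without Ctrl replicate 2, 9 members were called in each case.

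**Figure D1:**
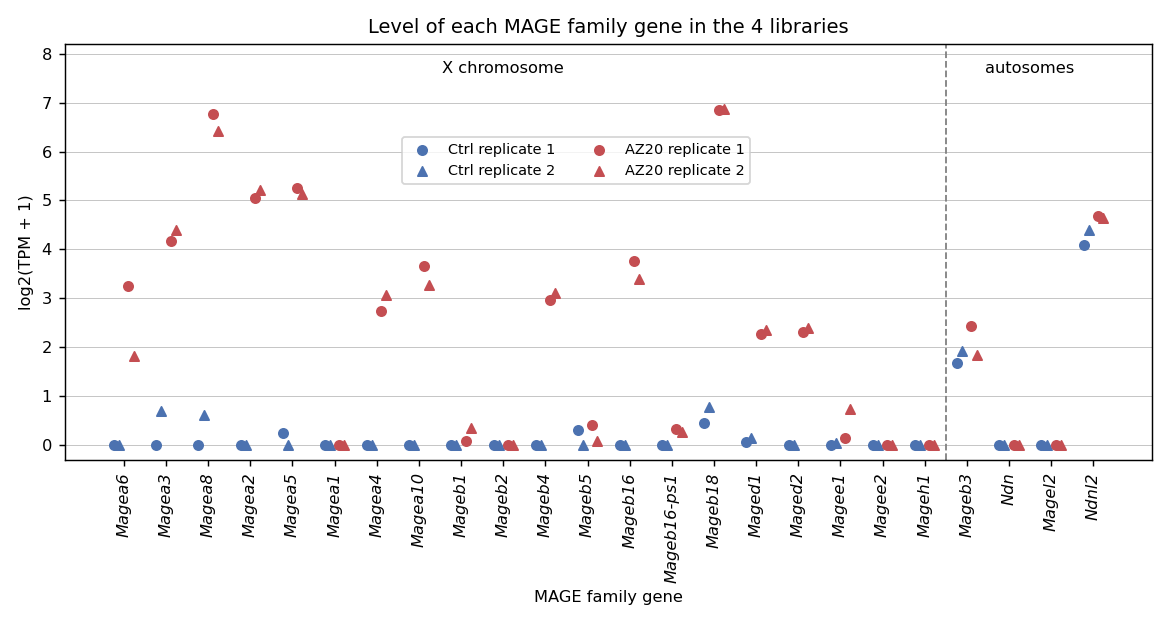
Level of the 24 MAGE family genes as log2(TPM + 1) on the vertical axis, with 1 point for each library (blue for Ctrl, red for AZ20, circles for replicate 1 and triangles for replicate 2) and genes along the horizontal axis, X-linked genes left of the dashed line and autosomal genes right of it. The Ctrl points of every X-linked gene lie below 1, the AZ20 points of 12 X-linked genes lie above 1, and the points of Ndnl2 and Mageb3 lie close together in both conditions.

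The plot of levels by library shows a silent group, a rising group and an autosomal group. The rising group is led by Mageb18 and Magea8. For Mageb18, a MAGE-B gene that RefSeq places at chrX:92118879-92599572 (GRCm38), the Ctrl libraries held 0.367 and 0.722 TPM (8 and 18 reads) and the AZ20 libraries 114 and 116 TPM (3587 and 3294 reads). Both AZ20 libraries were far above both Ctrl libraries, and the AZ20 libraries were close to each other (115 ± 1.41 TPM, SD, n = 2). The change was 6.24 (SE 0.23) on the log2(TPM + 1) scale with an adjusted p of 3.81e-05 from limma, and the level was 207 times as high (95% counting interval 141 to 317). Its AZ20 level ranked 20th among the 341 X-linked genes tested, whose median was 6.45 TPM. For Magea8, which lies in the main MAGE-A cluster, Ctrl held 0 and 0.527 TPM (0 and 10 reads) and AZ20 held 108 and 85 TPM (2576 and 1836 reads). The groups again did not overlap, but the AZ20 libraries were further apart than for Mageb18 (96.3 ± 16 TPM, SD, n = 2). The change of Magea8 was 6.29 (SE 0.29), with an adjusted p of 5.22e-05 from limma, and ranked 12th among X-linked genes tested. With a pseudocount of 0.01 Magea8 was no longer called (adjusted p = 0.0779, limma) on that scale, where a library at 0 weighs more. Both genes together held most of the reads on X-linked MAGE genes in AZ20, with 37.7% and 40.9% on Mageb18 and 27.1% and 22.8% on Magea8 in the AZ20 libraries.

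The main MAGE-A cluster spans 166 kb (chrX:154923895-155089790, GRCm38) and holds Magea6, Magea3, Magea8, Magea2, Magea5 and Magea1 in that order. MAGE-A proteins are the best known cancer-testis antigens of the family, and human MAGE-A3 and MAGE-A6 bind the ligase TRIM28. Magea2 had no read in Ctrl and 32.3 and 36 TPM in AZ20 (792 and 797 reads). The AZ20 libraries differed little, and the level was at least 207-fold higher than 3 reads in each Ctrl library would give. Its change was 5.13 (SE 0.25, adjusted p = 6.35e-05, limma). Magea5 had 0.19 and 0 TPM in Ctrl (3 and 0 reads) and 37.4 and 33.9 TPM in AZ20 (850 and 696 reads). The AZ20 ranges of Magea2 and Magea5 overlapped, so neither can be placed above the other. The change of Magea5 was 5.07 (SE 0.26, adjusted p = 6.85e-05, limma) and its level was 403 times as high, with a wide counting interval of 138 to 1956 from its 3 Ctrl reads. Magea3 had 0 and 0.626 TPM in Ctrl (0 and 8 reads) and 16.9 and 19.9 TPM in AZ20 (272 and 289 reads), a lower level than its neighbours Magea8, Magea2 and Magea5 in both AZ20 libraries. It changed by 3.92 (SE 0.32, adjusted p = 0.00069, limma), and with a pseudocount of 0.01 it was not called (adjusted p = 0.222).

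Magea6 and Magea1, at the 2 ends of the cluster, differed from the genes between them. Magea6 had no read in Ctrl and 8.53 and 2.54 TPM in AZ20 (149 and 40 reads). Both AZ20 libraries were above Ctrl but on the log scale they were further apart than those of any other tested X-linked member, and the changes in the pairs were 3.25 and 1.82. Magea6 was not called (change 2.54, SE 0.49, adjusted p = 0.0562, limma). With the replicate number as a block it was called (adjusted p = 2.53e-06, limma), and with voom on the recovered reads it was not (adjusted p = 0.11, limma). Magea1 had no read in any library, where 3 reads over its GENCODE transcript would have given at most 0.268 TPM. Of the other 14 genes within 1 Mb of the cluster, 5 were tested and 4 were called higher, with a median change of 3.88, beside 63.3% called and a median of 2.61 over X-linked genes tested.

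The low count of Magea1 has to be read with its sequence. Only reads with a unique alignment were counted, and in GENCODE transcripts 51.8% of the 150-base windows of Magea1 occur letter for letter in another gene, nearly all of them in Magea2. The longest open reading frames of Magea2 and Magea1 were 99.3% identical, and over the 15 pairs of the 6 cluster genes identity was 96.2% to 99.3%. The part of unique counting in the levels of these genes was not tested.

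**Figure D2:**
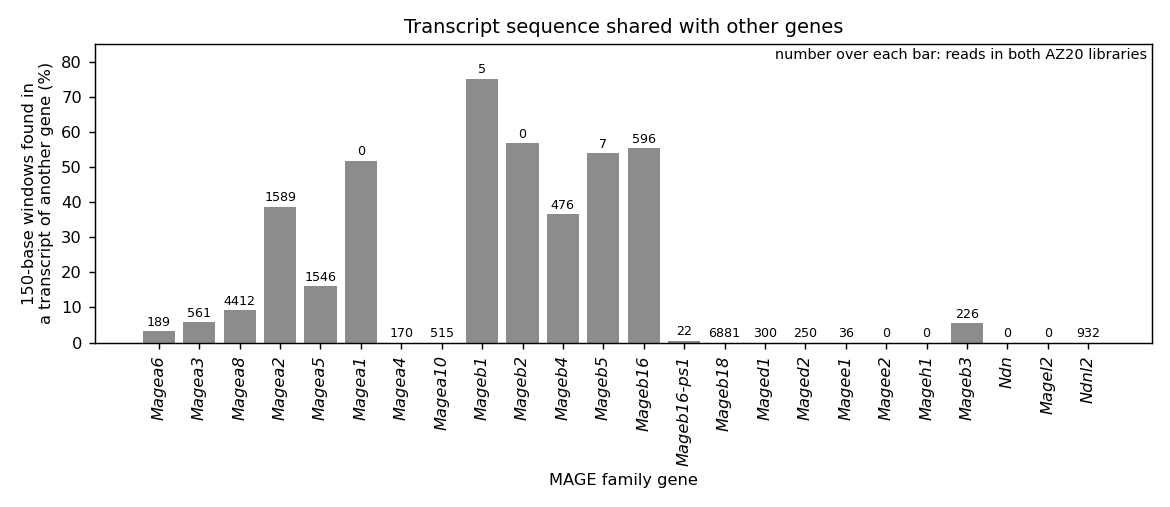
Percent of the 150-base windows of each MAGE family gene's transcripts that also occur exactly in a transcript of another gene (bars), with the number of reads in both AZ20 libraries together printed above each bar. Magea1, Mageb1 and Mageb2 have over 50% shared windows and 0 to 5 reads, Mageb16 has 55.4% and 596 reads, and Mageb18, which has the most reads, shares no window.

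The plot of shared windows sets shared sequence beside read counts, and whether sharing lowered any count was not tested. A shared window was found in 13 of the 24 members and none in the other 11, which include Mageb18, Magea4, Magea10, Maged1, Maged2 and also Ndn, Magel2, Mageh1 and Magee2, which were at 0. Among the members with reads, the share was high for Mageb16 (55.4%, with the pseudogene Mageb16-ps2), Mageb5 (54%, with Gm14781), Magea2 (38.7%, mostly with Magea1) and Mageb4 (36.6%, with Mageb10-ps), and their levels are uncertain for that reason. The windows are single stretches, whereas the libraries were sequenced as paired reads of 150 bp, so a fragment may be unique through its mate. They come from 1 GENCODE transcript of each gene, which can differ from the gene as counted. For Ndnl2 that transcript has 5946 bases, against a length of 1391 bases recovered from the TPM.

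The sequences around the start sites of 4 cluster genes are shown because they form the most similar pairs of the family, 1 pair of rising genes and 1 pair of a rising and a silent gene. The RefSeq table of promoters (GRCm38.p6) held 21 of the 24 members and no entry for Mageb1, Mageb2 or Mageb16-ps1. Each promoter runs from 250 bases before to 50 bases after the annotated start. Magea8 (chrX:154995801-154996100, minus strand) and Magea2 (chrX:155033243-155033542, minus strand), both called higher, were identical at 264 of 300 bases (88%). Capitals mark their longest shared run of 70 bases.

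Magea8: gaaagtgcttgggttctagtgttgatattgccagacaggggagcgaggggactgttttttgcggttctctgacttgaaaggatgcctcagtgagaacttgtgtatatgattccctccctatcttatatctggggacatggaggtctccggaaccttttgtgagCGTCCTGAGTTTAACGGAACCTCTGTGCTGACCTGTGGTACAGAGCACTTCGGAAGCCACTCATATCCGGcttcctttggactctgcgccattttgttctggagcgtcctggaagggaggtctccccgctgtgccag
Magea2: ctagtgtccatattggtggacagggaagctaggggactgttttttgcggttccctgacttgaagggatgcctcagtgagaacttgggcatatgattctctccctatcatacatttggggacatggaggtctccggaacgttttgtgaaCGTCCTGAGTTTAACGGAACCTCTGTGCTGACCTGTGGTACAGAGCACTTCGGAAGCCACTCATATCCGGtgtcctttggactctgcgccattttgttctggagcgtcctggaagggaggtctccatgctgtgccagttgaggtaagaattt

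Magea3 (chrX:154949520-154949819, minus strand), called higher, and Magea1 (chrX:155089741-155090040, minus strand), at 0 in every library, were identical at 258 of 300 bases (86%). Capitals mark their longest shared run of 29 bases, which lies just after the annotated start.

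Magea3: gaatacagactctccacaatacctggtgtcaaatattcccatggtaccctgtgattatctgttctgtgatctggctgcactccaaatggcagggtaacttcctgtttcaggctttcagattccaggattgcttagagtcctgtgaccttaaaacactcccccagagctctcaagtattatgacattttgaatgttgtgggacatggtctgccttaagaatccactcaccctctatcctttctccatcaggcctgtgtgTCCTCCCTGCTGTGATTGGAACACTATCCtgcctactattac
Magea1: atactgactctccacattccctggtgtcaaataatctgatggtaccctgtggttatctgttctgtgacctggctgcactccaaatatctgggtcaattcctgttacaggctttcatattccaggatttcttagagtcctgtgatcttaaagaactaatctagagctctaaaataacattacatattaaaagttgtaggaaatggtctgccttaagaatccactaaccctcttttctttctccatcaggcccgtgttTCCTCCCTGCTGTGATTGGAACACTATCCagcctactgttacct

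The start used for Magea3 lies 9462 bases inside the gene as RefSeq gives it, so another transcript starts further upstream, while the starts of Magea8 and Magea1 are the outermost base of the gene and that of Magea2 is 21 bases from it. The starts used for Magea6, Magea5 and Magea4 also lie inside the gene (9959, 1598 and 1002 bases). The Magea8 and Magea2 windows hold 10 and 9 CG steps, close to the median of 7 over 32851 promoters (quartiles 3 and 20), and the Magea3 and Magea1 windows hold 0 and 1. Mageb18, the member with the highest AZ20 level, has 1 CG step. High numbers are those of Ndnl2 (25) and Mageb3 (20), which had RNA in every library, and of Maged1 (20), which had 1 and 3 reads in Ctrl. Maged2, with no read in Ctrl, has several annotated starts, and its windows 1 to 4 hold 8, 9, 19 and 19 CG steps. Mageh1 (18) had no read in any library. Of the motifs searched on both strands, GGAAGT (the ETS family core) occurs in Magea6, Magea3, Magea5 and Magea4 of the MAGE-A genes and in 23.8% of all promoters. It also occurs in Mageb16, Mageh1 and window 2 of Maged2. The motif CAGTTG (MYB family) occurs in Magea2, Mageb18 and Magee1 and in 13.7% of all promoters. The cyclic AMP response element core TGACGT occurs in Ndnl2 and Mageb16 (7.51% of all promoters), and the GC box GGGCGG occurs in 9 members (35.7% of all promoters). These are Ndn, Magel2, Mageh1 and Magee2, which were at 0, and Ndnl2, Mageb3, Mageb16, Maged2 and Magee1, which had reads. Neither AACNGTT (MYB family, 4.45%) nor the E-box CACGTG (7.15%) occurs in a window of a member. CCATNTT, searched after the sequences had been seen, occurs in Magea8, Magea2, Magea10, Magel2 and Maged2 and in 16.1% of all promoters. A match of letters is a description of the window and not a site.

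The second MAGE-A group, Magea4 and Magea10, also spans 166 kb (chrX:72221015-72386858, GRCm38) and is far from the main cluster in position and sequence. The open reading frame of Magea4 was 83.3% to 84.6% identical to those of the main cluster, and that of Magea10 was 66.1% to 69.1% identical. Magea10 had no read in Ctrl and 11.6 and 8.66 TPM in AZ20 (308 and 207 reads), at least 66.3-fold higher. Both AZ20 libraries lay clear of Ctrl, and the change was 3.47 (SE 0.30, adjusted p = 0.000822, limma). Magea4 had no read in Ctrl and 5.66 and 7.4 TPM in AZ20 (78 and 92 reads), at least 22.2-fold higher. It changed by 2.90 (SE 0.30, adjusted p = 0.00232, limma), so both genes of the group rose from libraries with no read. Of 36 other genes within 1 Mb, 13 were tested and 11 were called higher, with a median change of 2.56, beside the same 63.3% and 2.61 over X-linked genes. In all, 6 of the 8 MAGE-A genes were called.

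Among the MAGE-B genes the response was divided. Besides Mageb18, Mageb16 and Mageb4 were called. Mageb16 (chrX:79623231-79671435) had no read in Ctrl and 12.5 and 9.48 TPM in AZ20 (354 and 242 reads), at least 76.8-fold higher, with a change of 3.57 (SE 0.29, adjusted p = 0.000677, limma). Mageb4 (chrX:86250256-86256219) had no read in Ctrl and 6.79 and 7.59 TPM in AZ20 (237 and 239 reads), at least 61.9-fold higher, with a change of 3.03 (SE 0.29, adjusted p = 0.00143, limma). For both genes the AZ20 libraries were close together and separate from Ctrl.

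The other X-linked MAGE-B genes stayed under the filter. Mageb1 had no read in Ctrl and 1 and 4 reads in AZ20, and Mageb2 had none in any library. Mageb1 and Mageb2 share 75.1% and 56.7% of their windows with other genes, most of them with each other. The part of this in their counts was not tested. Mageb5, with 54% of its windows shared, was counted 3 and 0 times in Ctrl and 6 times and 1 time in AZ20, with overlapping ranges and a ratio of 1.82 whose counting interval ran from 0.416 to 10.9. The pseudogene Mageb16-ps1 had no read in Ctrl and 13 and 9 in AZ20 (0.257 and 0.197 TPM), at least 2.83-fold higher. Mageb18 and Mageb1 lie within 1 Mb of each other, and one rose to a level among the highest of the chromosome while 5 reads were counted on the other in AZ20.

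Mageb3 gave the comparison of a MAGE-B gene outside the X chromosome. It lies at chr2:121953771-121956092 (GRCm38), and its open reading frame was 98.5% identical to that of X-linked Mageb2. It had 2.18 and 2.76 TPM in Ctrl (51 and 74 reads) and 4.38 and 2.56 TPM in AZ20 (148 and 78 reads). The ranges overlapped and the pairs moved in different directions, by 0.76 and -0.08. The change was 0.34 (SE 0.32, adjusted p = 0.835, limma), and no difference was called. With 5.43% of its windows shared with Mageb1 and Mageb2, most windows of Mageb3 occur in no other gene. Mageb2 had no read in any library and was not tested, and 56.7% of its windows are shared. The 2 genes therefore differ in having reads in Ctrl, and no change can be compared between them.

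**Figure D3:**
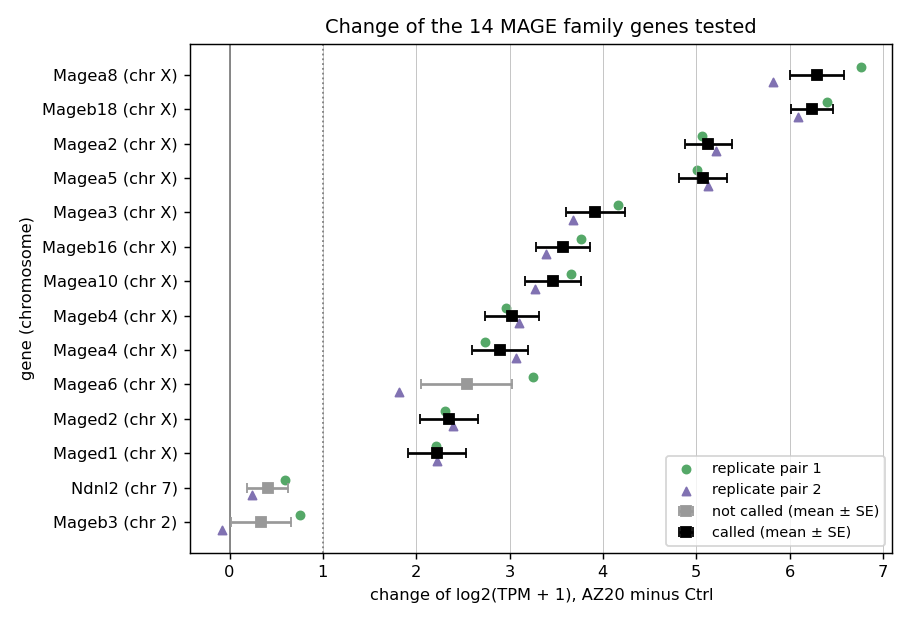
Change of the 14 tested MAGE family genes from Ctrl to AZ20 on the log2(TPM + 1) scale (horizontal axis), with genes and their chromosomes on the vertical axis. Squares are the limma estimate with its standard error (black if called, grey if not), circles and triangles are the change within replicate pairs 1 and 2, and the dotted line marks a 2-fold change. The 12 X-linked genes lie at 2.22 or above and the autosomal Ndnl2 and Mageb3 lie at 0.41 and 0.34.

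The type II genes were divided in the same way between rising and silent ones. Maged1, an adaptor of the p75 neurotrophin receptor also named NRAGE, had 0.036 and 0.0945 TPM in Ctrl (1 and 3 reads) and 3.8 and 4.1 TPM in AZ20 (152 and 148 reads). Maged2, whose human counterpart is mutated in a transient form of antenatal Bartter syndrome, had no read in Ctrl and 3.95 and 4.23 TPM in AZ20 (127 and 123 reads). Both were alike in their AZ20 level and separate from Ctrl, with changes of 2.22 (SE 0.31, adjusted p = 0.00996, limma) for Maged1 and 2.35 (SE 0.31, adjusted p = 0.00759, limma) for Maged2. The level of Maged1 was 58.6 times as high (95% counting interval 22.7 to 217) and that of Maged2 at least 32.5-fold higher. Both calls were lost when a Ctrl library was left out, with adjusted p-values from limma of 0.0735 and 0.0804 for Maged1 and 0.057 and 0.0701 for Maged2 without Ctrl replicate 1 and 2.

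The remaining X-linked type II genes had few reads or none. Magee1, which encodes a protein bound to dystrobrevin, had a single read in Ctrl, in replicate 2, and 5 and 31 reads in AZ20 (0.0978 and 0.672 TPM). Both AZ20 libraries were above Ctrl, but they differed widely, and the ratio of 28.1 had a counting interval of 4.74 to 1142. Magee2 and Mageh1 had no read in any library, where 3 reads over their GENCODE transcripts would have given at most 0.128 and 0.211 TPM. Neither gene shares a window with another gene.

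On chromosome 7, Ndn and Magel2 are imprinted neighbours (chr7:62348277-62349928 and chr7:62376979-62381640, GRCm38) that are expressed from the paternal allele and lie in the region matching that of Prader-Willi syndrome. Both were at 0 in all 4 libraries. For Magel2, 3 reads over its GENCODE transcript (4631 bases) would have given at most 0.0642 TPM. The same limit for Ndn was 0.0805 TPM over 3694 bases. Its RefSeq span given above is shorter, so the limit for Ndn as counted is higher. A lack of reads in pachytene spermatocytes was therefore not limited to X-linked members. The other chromosome 7 member, Ndnl2 (chr7:64871682-64873040), encodes Nsmce3, the MAGE subunit of the SMC5/6 complex that works in DNA repair. It was the MAGE gene with the highest level in Ctrl, with 16 and 20 TPM (225 and 321 reads), and it had 24.6 and 23.8 TPM in AZ20 (498 and 434 reads). Both AZ20 libraries were above both Ctrl libraries, by 0.59 and 0.24 in the pairs, but the change of 0.41 (SE 0.22) did not pass the test (adjusted p = 0.68, limma). The ratio of 1.33 had a counting interval of 1.2 to 1.49, which does not cover the spread between mice.

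In AZ20, where the levels can be ordered, Mageb18 and Magea8 stood above Magea2 and Magea5, these above Magea3, and Magea3 above the rest of the X-linked members. Mageb18 was above Magea8 in both AZ20 libraries, but by little in replicate 1 (114 and 108 TPM). Mageb16 and Magea10 overlapped, as did Mageb4 and Magea4, and the levels of Maged1 and Maged2 also overlapped. The AZ20 libraries of Magea6 reached from below Maged1 to above Mageb4. The autosomal Ndnl2 lay between Magea5 and Magea3.

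A larger share of the RNA of the X chromosome came from MAGE genes in both AZ20 libraries than in either Ctrl library. Of the reads on X-linked genes, 15 of 3479 (0.431%, 95% Wilson interval 0.261 to 0.71) and 40 of 2965 (1.35%, 0.992 to 1.83) fell on X-linked MAGE genes in Ctrl. In AZ20 the shares were 9507 of 246469 (3.86%, 3.78 to 3.93) and 8048 of 212663 (3.78%, 3.7 to 3.87). The AZ20 shares lay close together above both Ctrl shares, which differed from each other beyond their counting intervals. An exact two-sided permutation test of 2 against 2 libraries cannot give a p below 0.333.

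**Figure D4:**
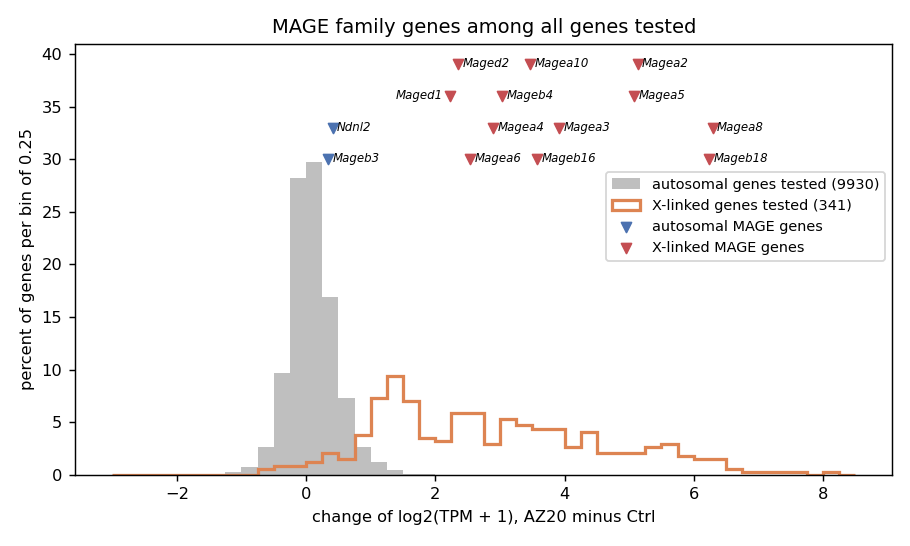
Distribution of the change from Ctrl to AZ20 on the log2(TPM + 1) scale (horizontal axis) as percent of genes in bins of 0.25 (vertical axis), for 9930 autosomal genes (grey) and 341 X-linked genes (orange line), with triangles at the changes of the 14 tested MAGE family genes placed at arbitrary heights. The 12 X-linked MAGE genes spread over 2.22 to 6.29, within the range of the X-linked genes, and the 2 autosomal ones lie within the grey distribution.

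Within the distribution of X-linked genes, the MAGE genes were spread from the upper end to the lower middle. Ranked by change among the 341 X-linked genes tested, Magea8 was 12th and Mageb18 14th, Magea2 and Magea5 were 46th and 49th, and Magea3 was 88th. Mageb16, Magea10, Mageb4 and Magea4 ranked 112th, 119th, 144th and 155th. Magea6, Maged2 and Maged1 came 178th, 192nd and 201st. For genes near 0 in Ctrl, a change on the log2(TPM + 1) scale largely follows the AZ20 level, so these are not ranks of fold. Magea5, for example, was 403 times as high and ranked 49th, whereas Mageb18 was 207 times as high and ranked 14th.

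The genes of known protein partners of the family were taken as a list of 18, of which 17 were tested and 0 were called in either direction. With 2.28% of all genes called higher and 0.0485% lower, a count of 0 in a list of this size is near the background and is no result about the partners. Trim28, the ligase bound by MAGE-A proteins, had 88 and 81.9 TPM in Ctrl and 79.3 and 97.1 TPM in AZ20, with a change of 0.05 (adjusted p = 0.972, limma). Of the other ligases and partners, Trim27, which acts with Magel2, changed by -0.34 (adjusted p = 0.708, limma), and Pja2, Lnx1, Dcaf12 and Usp7 by 0.03 to 0.22. Pja1, a ligase bound by Maged1, is the X-linked gene of the list. It had 0.624 and 0 TPM in Ctrl (17 and 0 reads) and 2.95 and 3.5 TPM in AZ20 (116 and 124 reads), so that the groups did not overlap, but it was not called (change 1.73, SE 0.36, adjusted p = 0.0816, limma). With the replicate number as a block it was called (adjusted p = 0.00124, limma).

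The other subunits of the SMC5/6 complex, in which Nsmce3 pairs with the ligase Nsmce1, were well expressed. Nsmce1 had 420 and 504 TPM in Ctrl and 492 and 416 TPM in AZ20, with a change of -0.02 (adjusted p = 0.987, limma). Smc5, Smc6 and Nsmce2 changed by 0.03, 0.02 and -0.18. The largest changes in size were those of Nsmce4a (-0.51, adjusted p = 0.706, limma) and its germ cell relative Eid3 (-0.42, adjusted p = 0.703, limma). The WASH complex, which Magel2 regulates at endosomes, had 4 of 5 genes tested, with changes from -0.40 (Washc2) to 0.44 (Washc4), while Magel2 itself was at 0.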

How the data were processed

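RNA-seq libraries of FACS-isolated pachytene spermatocytes (2 Ctrl, 2 AZ20) were analysed. The authors trimmed paired reads of 150 bp with Trimmomatic (version 0.39), aligned them to GRCm38 (mm10) with STAR (2.5.4b), kept unique alignments, counted reads on UCSC refGene genes with featureCounts (2.0.1) and deposited TPM values for each library. Only TPM were given, so no model of the authors' counts was fitted. In the table, 92 blank lines were left out, and 0 columns of libraries outside the series were present.

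Reads were recovered from the deposited TPM, since each value is a whole number of reads over a gene length that is the same in every library. Whole reads were found for 16857 of 16857 genes above 0 (100%, tolerance 0.002). A common whole factor cannot be seen in TPM, and 465 genes were set to the larger multiple that matched the annotated length, so read totals are approximate. Intervals and the limit of 3 reads in each library cover counting error only. Folds against a group at 0 were computed against 3 reads in each library. For genes with no read in any library, the TPM of 3 reads used the length of a GENCODE transcript. The ratio of levels was that of the reads over both libraries of a group, scaled as TPM, with an exact interval.

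The limma fit (version 3.58.1, R 4.3.3) used log2(TPM + 1) and an intensity trend over the 10316 genes whose mean TPM exceeded 1 in either condition. Genes were called at a 2-fold change and a Benjamini-Hochberg adjusted p under 0.05, two-sided. A change on this scale understates that of low genes. The test was checked on simulated data. The alternatives were other pseudocounts (0.1, 0.01), no filter, a mean TPM above 5, quantile normalization, no trend, voom on recovered reads, the replicate block and leaving out each library. The methods state that cells of a mouse were split between treatments. Same-numbered libraries deviated together from their group means (correlation 0.229 over the tested genes), and the numbers were taken to pair the libraries. The methods call the 2 replicates independent biological replicates, although the labels do not name the mice. The main fit has no term for the pair. Its p-values therefore measure the spread between these libraries, with differences between the pairs left in the error.

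All members of the family were accounted for, those above the filter by library and those below it by reads. Members, partner genes, markers and motifs were chosen with earlier results of these data known. Coordinates and promoters are from RefSeq (GRCm38.p6) and transcripts from GENCODE. Tables were made with Python 3.11.15, pandas 2.3.3, numpy 2.4.6, scipy 1.17.1, biopython 1.88 and matplotlib 3.10.9. Depth was 14271605 and 16157672 recovered reads in Ctrl and 20587153 and 18892576 in AZ20.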

Additional observations from a re-analysis of the deposited data

How the results depend on the processing

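The count of 11 members called higher stayed between 10 and 12 under other pseudocounts, filters, quantile normalization, no trend, voom and the replicate block, and ranged from 0 to 9 when a library was left out, where the lone library of a condition is assumed to vary like the other condition. No member was called lower under any alternative, and no change turned its direction. With the replicate number as a block, 12 members were called, Magea6 being added, and the calls rose to 424 genes higher and 23 lower, from 235 and 5. Magea6 was also called with pseudocounts of 0.1 (adjusted p = 0.025, limma) and 0.01 (0.0275), with a mean TPM above 5 (0.0302), and with voom and the block together (0.00578), an alternative chosen after seeing the data. The block changed no other call of a member, and among the listed partners and markers it added Pja1 and Prm1.

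Genes called higher ranged from 0 to 184 and genes called lower from 0 to 1 when a library was left out. Without an expression filter 1 gene was called lower, as with voom (1), and 2 with voom and the replicate block. The median change of the tested members (3.25) was 6.14 with a pseudocount of 0.1, 9.10 with 0.01, 7.65 with voom, 7.63 with voom and the replicate block, 2.72 without the filter (18 members fitted) and 3.57 with a mean TPM above 5, and 3.19 to 3.46 without single libraries. A smaller pseudocount enlarges the change of genes at 0 in Ctrl by construction. A mean TPM above 5 left out Maged1, Maged2 and Mageb3. Quantile normalization moved the median of all genes from 0.07 to -0.06. At this depth 3 reads were the limit for genes at 0.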
